A study of Homo sapiens with 24 samples.

Results

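RNA levels were followed for 9 genes around the release of paused RNA polymerase II: the BET genes BRD2 and BRD3, the kinase gene CDK9 with its cyclin genes CCNT1 and CCNT2, and HEXIM1, HEXIM2, LARP7 and MEPCE, whose products hold that kinase inactive on 7SK RNA. They were taken by gene name from the 57820 genes counted in each of 24 RNA-seq libraries. The human osteosarcoma line U2OS was used in 2 forms: U2OS, and AID-DIvA U2OS, a derivative that carries the restriction enzyme AsiSI in a form induced by 4-hydroxytamoxifen. Each form was WT or ID3-knockout (KO), and each genotype was untreated or exposed to mocetinostat, an inhibitor of class I histone deacetylases, which gave 8 groups of 3 replicates. The treated AID-DIvA U2OS cells received the drug for 24 h and then 24 h without it (after recovery), whereas the treated U2OS libraries carry no recovery in their labels and were read as collected at the end of the drug exposure (before recovery). The dose used for RNA-seq, whether the knockout was 1 clone, and whether the AID-DIvA U2OS libraries had received 4-hydroxytamoxifen were not given in the sources used here. The study's supplementary figures name DMSO as the comparator of the drug, whereas the labels call those libraries untreated. For AID-DIvA U2OS the treatment entry of the labels runs opposite to the library titles. The titles were followed, so every direction after recovery rests on them and would turn under the other reading. Stage, cell line and sequencing series coincide and cannot be told apart.

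BET proteins bind acetylated lysines of histones through paired bromodomains and help recruit the elongation machinery to promoters and enhancers. P-TEFb, made of CDK9 and cyclin T1 or T2, phosphorylates the polymerase and its pausing factors and so allows productive elongation. Much of the cell's P-TEFb is kept inactive by HEXIM1 or HEXIM2 on the 7SK small nuclear RNA. The methyltransferase MEPCE caps the start of this RNA, and LARP7 binds its end. HEXIM1 RNA is also used as a readout of exposure to BET inhibitors.

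All 9 genes matched RefSeq promoter windows (GRCh38.p14, 250 bases before to 50 after an annotated start, 17 windows in all). The windows of HEXIM1, a gene that was higher under the drug before recovery in KO cells, and MEPCE, the gene that was lowest relative to untreated cells, are shown because they were the member windows with the letters TATATAA, a choice of letters made after the windows were read. On the plus strand the first T lay 31 bases before the start in HEXIM1 and 30 bases before it in 1 of the 3 MEPCE windows. The 250 bases before each start are printed 5′ to 3′, with TATATAA in capitals, for chr17:45148225-45148474 (HEXIM1, plus strand) and chr7:100428540-100428789 (MEPCE, plus strand).
HEXIM1: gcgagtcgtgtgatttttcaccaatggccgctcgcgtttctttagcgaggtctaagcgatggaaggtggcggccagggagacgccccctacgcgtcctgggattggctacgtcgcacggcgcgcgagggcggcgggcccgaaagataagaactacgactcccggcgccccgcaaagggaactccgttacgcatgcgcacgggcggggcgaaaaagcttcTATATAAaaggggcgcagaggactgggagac
MEPCE: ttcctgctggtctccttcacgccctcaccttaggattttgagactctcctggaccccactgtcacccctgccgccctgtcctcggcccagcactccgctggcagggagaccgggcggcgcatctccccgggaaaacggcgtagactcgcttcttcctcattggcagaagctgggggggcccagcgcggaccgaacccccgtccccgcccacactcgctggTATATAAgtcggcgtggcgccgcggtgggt
On either strand, TATATAA was found in 2.57% of 35116 windows of this length. CANNTG, the E box letters read by the E proteins that ID3 binds, was found in 10 of the 17 windows, from 6 of the 9 genes, and in 68.7% of all windows. GGGCGG, counted on both strands, was found in 12 of the 17 windows, from 8 genes, and in 45.0% of all windows. HEXIM1 held 2 E box matches, both within the 50 bases after its start. These matches are descriptions of letters and were not tested as binding sites.

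ID3, the targeted gene, was measured first as a check of the labels. Its level, in counts-per-million (CPM) scaled with TMM factors over the 24 libraries, was 80.7, 54.3 and 52.1 in untreated U2OS WT and 32.3, 30.2 and 29.3 in untreated U2OS KO. In untreated AID-DIvA U2OS it was 47.9, 51.5 and 52.0 CPM in WT and 33.4, 32.0 and 38.9 CPM in KO. ID3 RNA was therefore lower in every KO library than in every WT library of the same untreated line, but not absent. Library totals ranged from 37878751 to 76906266 counts. Untreated U2OS WT replicate 1 stood apart from its 2 partners, with a chi-square per gene of 103 and 91.1 against 4.32 between those partners and at most 27.3 for any pair in another group, and the tests and counts that rest on it are given with and without it. Summed osteosarcoma markers were 2225 to 4671 CPM and lower in the treated than in the untreated libraries of every group pair, with COL1A1, SPARC and VIM high. Low markers were SP7 at 0 to 0.114 CPM, BGLAP at 0.226 to 0.689, COL1A2 at 0.0516 to 1.37 and ALPL at 0.619 to 6.95. Single markers went both ways: of 7 tested by edgeR, 1 was called higher and 4 lower in KO before recovery. In WT before recovery 0 were higher and 4 lower, with or without untreated replicate 1. After recovery 2 were higher and 3 lower in KO, and 1 and 2 in WT. Shares over all genes are given below with the 9 genes. Summed markers of other cell types were 8.51 to 19.9 CPM and higher in the treated libraries of every pair, with CD3E at 0 to 0.0404 CPM, and the part of either sum in the results was not tested. In bulk RNA, fewer cells of a type and less RNA per cell cannot be told apart.

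Before recovery BRD2, the cyclin gene CCNT2, HEXIM2, LARP7 and MEPCE were lower in treated than in untreated cells of both genotypes. HEXIM2, LARP7 and MEPCE belong to the inhibitory 7SK group, and MEPCE fell most. BRD3 was called lower and HEXIM1 higher in KO cells. In WT cells they moved in the same directions, at -0.31 and 0.26 on the log2 scale, but did not pass the test. Without untreated WT replicate 1 both passed, at -0.46 and 0.39. CDK9 and CCNT1 differed from untreated cells by at most 0.16 on the log2 scale. All 9 genes passed the filter on low counts in every comparison. Before recovery 6 of the 9 genes were called lower and 2 higher in KO cells, where 34.0% of all tested genes were called lower and 35.8% higher (edgeR's quasi-likelihood test, Benjamini-Hochberg adjusted p below 0.05). In WT cells before recovery 5 were called lower and 0 higher, against 22.9% and 26.0% of all genes, and without untreated WT replicate 1 the counts were 6 and 2, against 32.5% and 33.9%. After recovery 3 were lower and 1 higher in KO cells, against 19.9% and 20.2% of all genes, and 4 were lower and 1 higher in WT cells, against 23.0% and 23.9%. The median log2 fold change of the 9 genes was -0.53 in KO and -0.39 in WT cells before recovery, and -0.05 and -0.06 after it, where the median over all tested genes lay between -0.02 and 0.01 in the 4 comparisons. The WT median before recovery was -0.47 without untreated WT replicate 1. HEXIM2 and MEPCE were the members lower by more than 1 on the log2 scale before recovery, in both genotypes, against 5.77% of all genes in KO and 5.06% in WT. The share of all genes that were so in both genotypes was not counted. On own-strand counts HEXIM2 was at -0.96 in KO, short of that limit. No member was higher by more than 1, as 14.6% of all genes were in KO and 13.6% in WT. These 2 members were also the ones lower by more than 1 in WT without untreated replicate 1, against 5.56% of all genes. After recovery no member passed that limit, against 4.90% of all genes higher and 2.56% lower in KO, and 4.86% and 2.52% in WT.

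**Figure D1:**
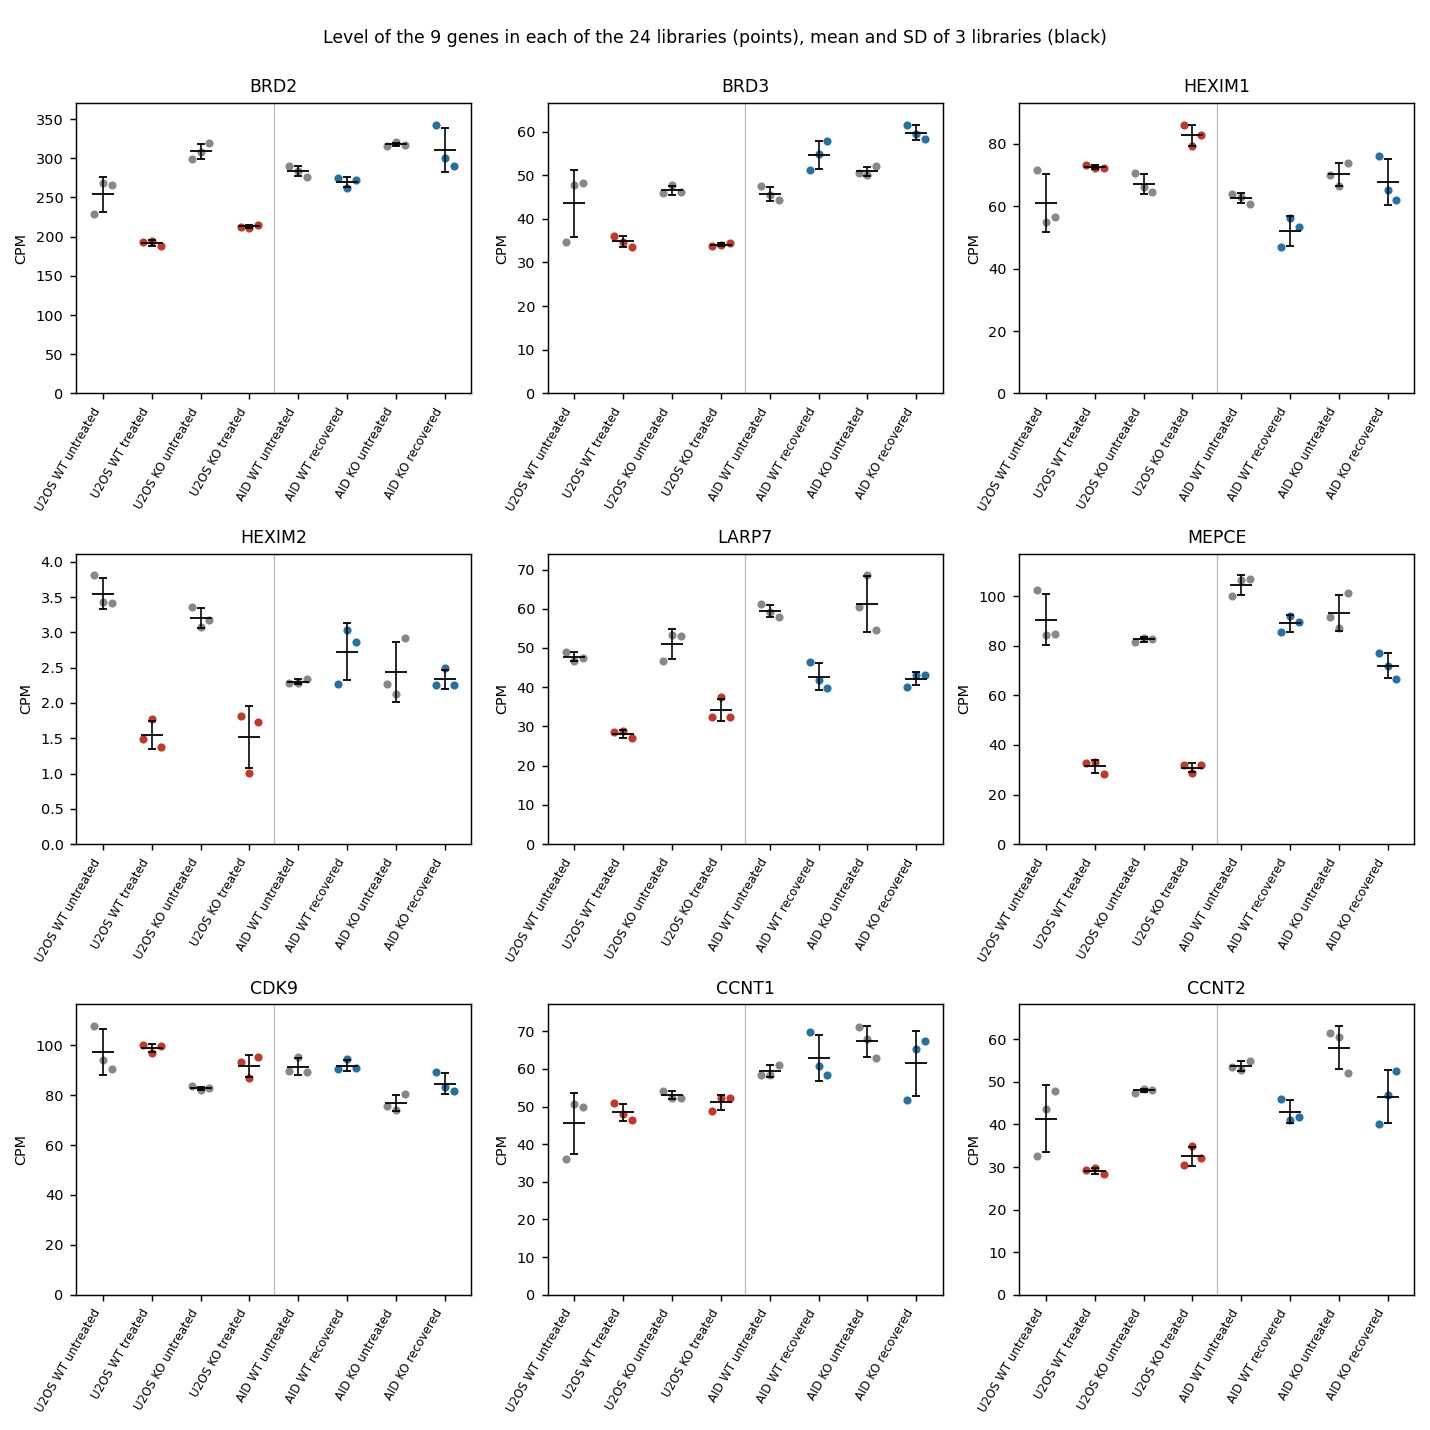
Level in CPM (y axis, from 0) of each of the 9 genes in the 24 libraries, with the 8 groups along the x axis, points for libraries and black marks for the mean and SD of 3 libraries. The 6 treated U2OS libraries of MEPCE sit between 28.3 and 33.2 CPM, below all other libraries.

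Levels of different genes were compared per kilobase of exonic length. On that scale BRD2 ran from 26.2 to 43.3 CPM per kilobase over the 8 group means, and CDK9 from 25.6 to 33.0. HEXIM1 was at 10.9 to 17.3 CPM per kilobase and MEPCE at 9.04 to 30.6. MEPCE lay above CDK9 in untreated AID-DIvA U2OS, at 30.6 against 30.5 in WT and 27.4 against 25.6 in KO. LARP7 lay at 6.88 to 15.0, CCNT1 at 6.27 to 9.27, BRD3 at 4.95 to 8.69 and CCNT2 at 3.20 to 6.39 CPM per kilobase. HEXIM2 was the least abundant, at 0.744 to 1.74 CPM per kilobase, and 1.83 to 4.74 when counted on its own strand alone.

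BRD2, a BET protein (chromosome 6, 32936437 to 32949282, plus strand, hg19), was lower under the drug before recovery in both genotypes and did not pass the test after it. It measured 299.6, 308 and 319 CPM in untreated U2OS KO and 213, 212 and 214 CPM in treated U2OS KO. In U2OS WT the untreated libraries held 228, 268 and 266 CPM and the treated libraries 193, 195 and 188 CPM. Every treated library lay below every untreated library of its genotype, and KO lay above WT in both conditions. The log2 fold change was -0.53 (SE 0.04, edgeR adjusted p = 1.16e-10) in KO and -0.39 (SE 0.08, edgeR adjusted p = 0.00509) in WT, or -0.47 (SE 0.03) in WT without untreated replicate 1. In AID-DIvA U2OS, KO measured 316, 320 and 316 CPM untreated and 343, 300.3 and 290 CPM after recovery. WT measured 290, 284 and 277 CPM untreated and 275, 262 and 272 CPM after recovery. The KO groups overlapped, whereas the 3 recovered WT libraries lay just below the untreated ones, and the log2 fold changes of -0.03 (SE 0.06) and -0.06 (SE 0.04) did not pass (edgeR adjusted p = 0.703 and 0.227).

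BRD3, the other BET gene measured (chromosome 9, 136895427 to 136933657, minus strand, hg19), was lower before recovery in KO cells and higher after recovery in both genotypes. Untreated U2OS KO held 45.8, 47.7 and 46.1 CPM, and treated U2OS KO 33.8, 34.0 and 34.5 CPM. In U2OS WT the values were 34.7, 47.8 and 48.3 CPM untreated and 36.1, 34.8 and 33.6 CPM treated. The KO groups did not overlap, and in WT only untreated replicate 1 reached down into the treated range. In KO, BRD3 fell by 0.44 on the log2 scale (SE 0.05, edgeR adjusted p = 1.94e-08), and the WT value of -0.31 (SE 0.13) did not pass (edgeR adjusted p = 0.0755). Without untreated WT replicate 1 the WT value was -0.46 (SE 0.05, edgeR adjusted p = 1.76e-12). It also passed with DESeq2 (-0.32, adjusted p = 0.0413), on own-strand counts (-0.36, edgeR adjusted p = 0.0218) and in the fit of all 4 U2OS groups (-0.32, edgeR adjusted p = 0.0115). After recovery AID-DIvA U2OS KO measured 61.6, 59.4 and 58.3 CPM, against 50.6, 50.05 and 52.1 CPM untreated. AID-DIvA U2OS WT measured 51.2, 54.9 and 57.8 CPM, against 47.4, 45.4 and 44.4 CPM untreated. In both genotypes all recovered libraries lay above all untreated libraries, with log2 fold changes of 0.23 (SE 0.06, edgeR adjusted p = 0.0124) in KO and 0.27 (SE 0.06, edgeR adjusted p = 0.00133) in WT. The KO call did not pass without recovered KO replicate 2 (edgeR adjusted p = 0.0586), untreated KO replicate 1 (0.0603) or untreated KO replicate 2 (0.0572). BRD3 shares sequence with LINC00094 on the opposite strand, which held 2327 to 5181 counts, and its either-strand counts were 78.6% to 89.9% of its own-strand counts.

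HEXIM1, the main protein inhibitor of P-TEFb, ran opposite to most other members before recovery, when it was called higher under the drug in KO, as CDK9 was, but not in WT. After recovery it was called lower in WT, as CCNT2, LARP7 and MEPCE were, and was not called in KO. It is annotated as a single block of 4785 exonic bases on chromosome 17 (43224684 to 43229468, plus strand, hg19), 8599 bases before HEXIM2 on the same strand. U2OS KO measured 70.6, 66.1 and 64.7 CPM untreated and 86.1, 79.4 and 82.9 CPM treated. U2OS WT measured 71.6, 54.8 and 56.7 CPM untreated and 73.4, 72.4 and 72.1 CPM treated. All treated libraries lay above all untreated libraries of their genotype, by a small margin in WT because of untreated replicate 1. The log2 fold change was 0.31 in KO (SE 0.05, edgeR adjusted p = 5.04e-06) and 0.26 in WT (SE 0.11), which did not pass (edgeR adjusted p = 0.0897). Without untreated WT replicate 1 the WT value was 0.39 (SE 0.04, edgeR adjusted p = 3.27e-12). On own-strand counts the WT value was 0.31 and passed (edgeR adjusted p = 0.0447), as did that of 0.25 in the fit of all 4 U2OS groups (edgeR adjusted p = 0.0247).

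After recovery the HEXIM1 libraries of AID-DIvA U2OS KO held 76.1, 65.0 and 61.9 CPM, against 70.0, 66.6 and 73.9 CPM untreated. Those of AID-DIvA U2OS WT held 46.9, 56.3 and 53.3 CPM, against 63.8, 62.9 and 60.7 CPM untreated. The untreated KO libraries lay within the range of the recovered ones, whereas all 3 recovered WT libraries lay below the untreated ones. HEXIM1 fell by 0.25 on the log2 scale in WT (SE 0.06, edgeR adjusted p = 0.00456), and the KO value was -0.05 (SE 0.08, edgeR adjusted p = 0.611). The WT call held in each of the 6 fits that left out 1 library, with log2 fold changes from -0.31 to -0.18. Ordered by group mean, HEXIM1 was highest in treated U2OS KO at 82.8 ± 3.36 CPM (SD, n = 3), which did not overlap the next group, treated U2OS WT at 72.6 ± 0.658 CPM. It was lowest in recovered AID-DIvA U2OS WT at 52.2 ± 4.78 CPM, whose range overlapped that of the next lowest group, untreated U2OS WT at 61.0 ± 9.18 CPM, or 55.7 ± 1.33 CPM (SD, n = 2) without its replicate 1.

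HEXIM2, a second 7SK-dependent inhibitor of P-TEFb (chromosome 17, 43238067 to 43247407, plus strand, hg19), was expressed at a low level and fell by more than 1 log2 unit before recovery. Untreated U2OS WT held 3.81, 3.43 and 3.41 CPM and treated U2OS WT 1.48, 1.77 and 1.38 CPM. Untreated U2OS KO held 3.36, 3.07 and 3.17 CPM and treated U2OS KO 1.82, 1.01 and 1.73 CPM. No treated library reached the lowest untreated library of its genotype. HEXIM2 fell by 1.20 on the log2 scale in WT (SE 0.14, edgeR adjusted p = 0.000325) and by 1.06 in KO (SE 0.16, edgeR adjusted p = 3.78e-06). The WT value was -1.16 (SE 0.15) without untreated replicate 1. After recovery AID-DIvA U2OS WT held 2.27, 3.04 and 2.87 CPM, against 2.28, 2.29 and 2.34 CPM untreated. AID-DIvA U2OS KO held 2.25, 2.49 and 2.26 CPM, against 2.27, 2.13 and 2.93 CPM untreated. These groups overlapped in both genotypes, and the log2 fold changes of 0.25 (SE 0.13) in WT and -0.04 (SE 0.15) in KO did not pass (edgeR adjusted p = 0.133 and 0.836).

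HEXIM2 was the member whose level depended most on how reads were assigned. Its either-strand counts were 55 to 249 per library, and its own-strand counts 180 to 797, so that the former were 30.6% to 49.7% of the latter. Counts on the opposite strand were at most 25.7% of its own-strand counts. It overlaps AC002117.1 and RP13-890H12.2 on the opposite strand, which held at most 37 and 33 own-strand counts, and reads that fall in more than 1 gene cannot be assigned without strand. On own-strand counts the recovered AID-DIvA U2OS WT libraries measured 6.40, 8.03 and 7.62 CPM, against 5.49, 5.68 and 5.64 CPM untreated. All recovered WT libraries then lay above all untreated ones, and the log2 fold change of 0.38 (SE 0.09) passed (edgeR adjusted p = 0.00461). The KO value after recovery turned from -0.04 to 0.09 and did not pass on either count (edgeR adjusted p = 0.438 on own-strand counts). Before recovery own-strand counts gave -1.21 in WT (edgeR adjusted p = 0.000350) and -0.96 in KO (edgeR adjusted p = 7.15e-09). Without recovered AID-DIvA U2OS WT replicate 1 the either-strand value in WT was 0.37 and passed (edgeR adjusted p = 0.0139).

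**Figure D2:**
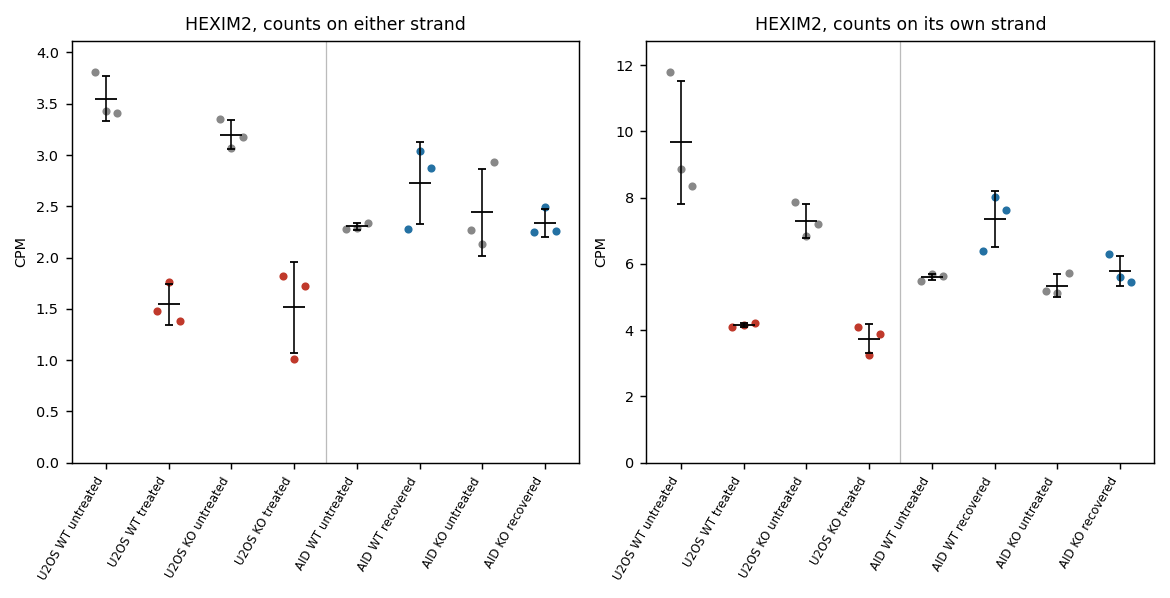
HEXIM2 level in CPM (y axes, each from 0) in the 24 libraries, counted on either strand (left) and on its own strand (right), with points for libraries and black marks for the mean and SD of 3 libraries. The treated U2OS libraries are lowest in both panels, and the recovered AID-DIvA U2OS WT libraries clear the untreated ones in the right panel, at 6.40 to 8.03 CPM against 5.49 to 5.68 CPM.

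MEPCE, the enzyme that caps 7SK RNA with a methyl group (chromosome 7, 100026413 to 100031741, plus strand, hg19), had the largest change of the 9 genes before recovery. U2OS KO went from 81.5, 83.3 and 82.9 CPM untreated to 31.8, 28.8 and 31.9 CPM treated. U2OS WT went from 103, 84.6 and 84.7 CPM untreated to 32.6, 33.2 and 28.3 CPM treated. The treated libraries were far below the untreated ones in both genotypes and their ranges did not meet. In KO, MEPCE fell by 1.41 on the log2 scale (SE 0.05, edgeR adjusted p = 6.96e-17) and in WT it fell by 1.52 (SE 0.11, edgeR adjusted p = 3.04e-05), and the WT value was -1.43 without untreated replicate 1. Of all tested genes, 2.43% in KO and 1.75% in WT had a lower log2 fold change, or 2.34% in WT without untreated replicate 1. After recovery AID-DIvA U2OS KO measured 77.0, 72.0 and 66.8 CPM, against 91.6, 87.3 and 101 CPM untreated. AID-DIvA U2OS WT measured 85.5, 92.1 and 89.5 CPM, against 100.0, 107 and 107 CPM untreated. The recovered libraries again lay below all untreated ones, but by less: the log2 fold change was -0.38 in KO (SE 0.08, edgeR adjusted p = 0.00349) and -0.22 in WT (SE 0.05, edgeR adjusted p = 0.00148).

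LARP7, the protein that binds and stabilises the end of 7SK RNA (chromosome 4, 113558120 to 113578748, plus strand, hg19), was lower in all 4 treatment comparisons. U2OS WT held 49.1, 46.7 and 47.6 CPM untreated and 28.5, 28.9 and 26.9 CPM treated. U2OS KO held 46.6, 53.3 and 53.0 CPM untreated and 32.5, 37.4 and 32.5 CPM treated. The groups were separate in both genotypes. LARP7 fell by 0.76 on the log2 scale in WT (SE 0.07, edgeR adjusted p = 9.51e-05) and by 0.58 in KO (SE 0.06, edgeR adjusted p = 1.72e-08). The WT value was -0.74 (SE 0.05) without untreated replicate 1. After recovery AID-DIvA U2OS WT held 46.5, 41.8 and 39.7 CPM, against 61.2, 59.2 and 58.0 CPM untreated. AID-DIvA U2OS KO held 40.2, 43.1 and 43.1 CPM, against 60.6, 68.5 and 54.5 CPM untreated. Recovered and untreated libraries stayed separate, with log2 fold changes of -0.47 in WT (SE 0.06, edgeR adjusted p = 2.19e-05) and -0.54 in KO (SE 0.09, edgeR adjusted p = 0.00121). LARP7 overlaps C4orf21 at its start on the opposite strand, and its either-strand counts were 81.2% to 85.6% of its own-strand counts.

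CDK9, the kinase of P-TEFb (chromosome 9, 130547958 to 130553066, plus strand, hg19), moved little. It measured 83.5, 82.0 and 82.7 CPM in untreated and 93.2, 86.8 and 95.4 CPM in treated U2OS KO. In U2OS WT it measured 108, 94.0 and 90.4 CPM untreated and 100.1, 97.1 and 99.5 CPM treated. The treated KO libraries lay above the untreated ones, whereas the WT groups overlapped. The KO log2 fold change of 0.16 (SE 0.05) passed (edgeR adjusted p = 0.00414), although not in the fit of all 4 U2OS groups together (edgeR adjusted p = 0.0723). The WT value was 0.03 (SE 0.09, edgeR adjusted p = 0.788), and 0.11 (SE 0.04, edgeR adjusted p = 0.00936) without untreated replicate 1. After recovery the values were 0.14 (SE 0.06, edgeR adjusted p = 0.107) in KO and 0.02 (SE 0.05, edgeR adjusted p = 0.798) in WT. The KO value passed without untreated AID-DIvA U2OS KO replicate 3 (edgeR adjusted p = 0.0483) and in the fit of all 4 AID-DIvA U2OS groups (0.0472).

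CCNT1 encodes cyclin T1, the main partner of CDK9, and CCNT2 its close relative cyclin T2. CCNT1 (chromosome 12, 49082247 to 49110681, minus strand, hg19) did not pass in any treatment comparison, with log2 fold changes of -0.05 in KO and 0.10 in WT before recovery and -0.13 and 0.09 after it (SE 0.05 to 0.13). The WT value before recovery turned to -0.05 without untreated replicate 1. Its libraries ranged from 36.1 CPM in untreated U2OS WT replicate 1, with 50.5 and 49.98 CPM in the other 2 replicates, to 71.1 CPM in untreated AID-DIvA U2OS KO. The recovered KO libraries held 51.7, 65.2 and 67.4 CPM and overlapped the untreated ones. CCNT2 (chromosome 2, 135675805 to 135716912, plus strand, hg19) was lower in all 4 comparisons.

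For CCNT2, U2OS KO measured 47.4, 48.3 and 48.2 CPM untreated and 30.4, 35.0 and 32.1 CPM treated. In U2OS WT it measured 32.6, 43.6 and 47.8 CPM untreated and 29.3, 29.7 and 28.3 CPM treated. All treated libraries lay below all untreated libraries of their genotype. In KO, CCNT2 fell by 0.56 on the log2 scale (SE 0.05, edgeR adjusted p = 2.70e-09) and in WT it fell by 0.49 (SE 0.13, edgeR adjusted p = 0.0167). The WT call did not pass without treated WT replicate 1, 2 or 3 (edgeR adjusted p = 0.0574, 0.0543 and 0.0687), and the WT value was -0.64 (edgeR adjusted p = 1.24e-16) without untreated replicate 1. After recovery AID-DIvA U2OS WT measured 46.1, 41.1 and 41.8 CPM, against 53.4, 52.7 and 55.0 CPM untreated. AID-DIvA U2OS KO measured 40.0, 47.0 and 52.6 CPM, against 61.4, 60.5 and 52.2 CPM untreated. The WT groups were separate, and in KO recovered replicate 3 and untreated replicate 3 overlapped. Both log2 fold changes were -0.31, with SE 0.05 and edgeR adjusted p = 0.000283 in WT and SE 0.11 and edgeR adjusted p = 0.0475 in KO. The KO call did not pass without recovered KO replicate 2 (edgeR adjusted p = 0.0991), untreated KO replicate 1 (0.156) or untreated KO replicate 2 (0.142), nor at 10 counts or more in every library (0.0527).

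Counted by ranges rather than by the test, treated libraries lay above all untreated ones for 2 members and below them for 7 in U2OS KO, against 36.8% and 35.6% of all tested genes. In U2OS WT the counts were 1 and 5, against 31.8% and 29.5%, or 2 and 6, against 37.5% and 37.8%, without untreated replicate 1. In AID-DIvA U2OS after recovery they were 2 and 2 in KO, against 25.4% and 27.1%, and 1 and 5 in WT, against 27.3% and 28.8%. The members below the untreated range in all 4 comparisons were LARP7 and MEPCE, and the share of all genes below it in all 4 was not counted.

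**Figure D3:**
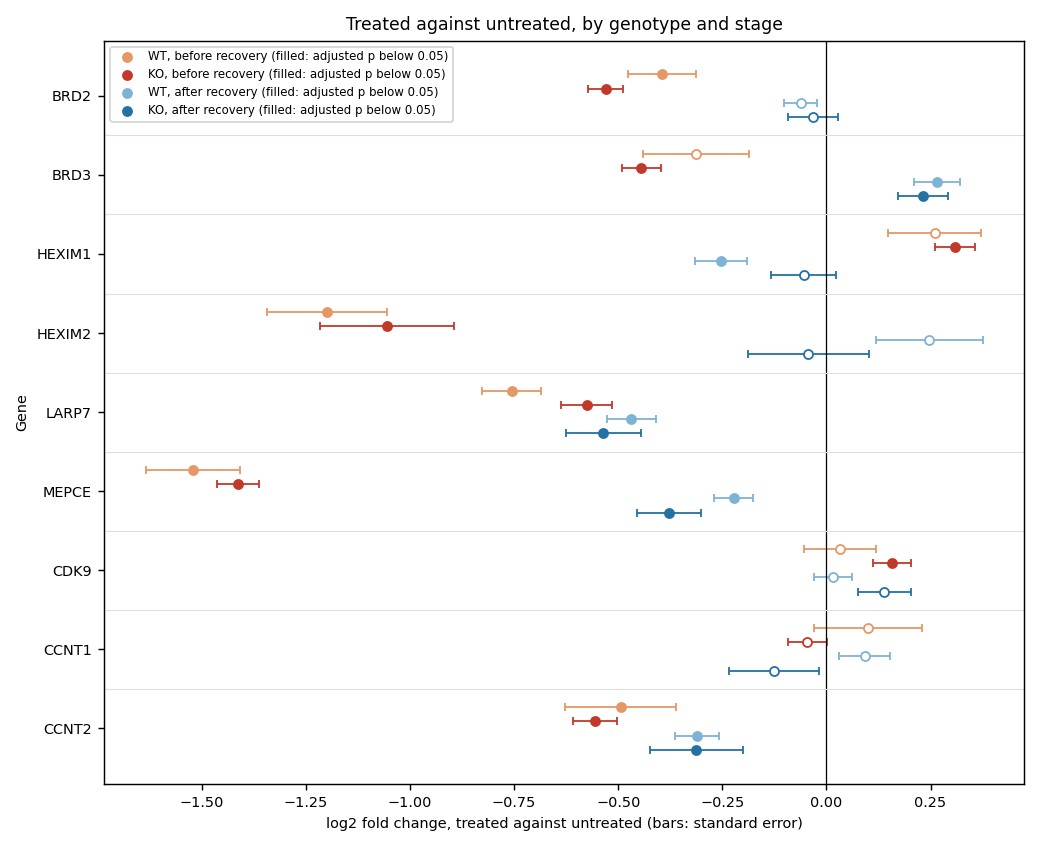
Log2 fold change, treated against untreated (x axis), for the 9 genes (y axis) in each genotype and stage, with bars for the standard error, filled points for adjusted p below 0.05 and open points for the rest. MEPCE and HEXIM2 lie beyond -1 before recovery in both genotypes, and BRD3 lies on opposite sides of 0 before and after recovery.

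Whether ID3 loss altered the response of these genes was asked with an interaction term in each stage. No member was called in either stage, where 1.21% of all genes were called after recovery and 2.15% before it (edgeR's quasi-likelihood test). No member reached an unadjusted p below 0.05 in either stage, and DESeq2 called 0 in both. Without untreated U2OS WT replicate 1 the count of members before recovery was also 0, where 9.03% of all genes were called. After recovery the largest difference on the log2 scale was -0.28 (KO minus WT response, SE 0.20) for HEXIM2, followed by -0.21 (SE 0.13) for CCNT1 and 0.20 (SE 0.11) for HEXIM1, with edgeR adjusted p = 0.626, 0.585 and 0.481. Before recovery the largest was 0.19 (SE 0.10) for LARP7, with edgeR adjusted p = 0.491, and 0.16 (SE 0.08) without untreated U2OS WT replicate 1. The HEXIM1 difference before recovery was 0.05 (SE 0.13) with that library and -0.08 (SE 0.06) without it. The standard errors of the 9 interactions ran from 0.07 to 0.20 after recovery and from 0.09 to 0.25 before it.

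Untreated KO and WT cells differed in the level of several members, by much less than the drug changed MEPCE or HEXIM2. In AID-DIvA U2OS 4 members were called higher and 2 lower in KO, against 18.6% and 18.1% of all genes. CDK9 held 75.9, 74.2 and 80.6 CPM in KO and 89.7, 95.3 and 89.3 CPM in WT. The 3 KO libraries lay below the 3 WT libraries, and the difference was -0.27 on the log2 scale (SE 0.05, edgeR adjusted p = 0.000414). MEPCE was also lower in KO by the same test, with -0.19 (SE 0.06, edgeR adjusted p = 0.0178). The higher members were CCNT1 at 0.16 (SE 0.05, edgeR adjusted p = 0.0172), HEXIM1 at 0.14 (SE 0.05, edgeR adjusted p = 0.0379), BRD2 at 0.14 (SE 0.04, edgeR adjusted p = 0.0121) and BRD3 at 0.13 (SE 0.05, edgeR adjusted p = 0.0441). The BRD3 call was not made by DESeq2 (adjusted p = 0.0578) or on own-strand counts (edgeR adjusted p = 0.0529), and none of the 4 higher calls was made in the fit of all 4 AID-DIvA U2OS groups (edgeR adjusted p = 0.0557 to 0.257). The CDK9 call held in each of the 6 fits that left out 1 library, whereas each of the other 5 calls was lost in at least 2 of them, with untreated WT replicates 1, 2 and 3 and KO replicates 1 and 2 each ending at least 1 call, at adjusted p of up to 0.186. The counts without 1 library ran from 0 to 5 higher and from 1 to 2 lower.

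In U2OS no member was called between untreated KO and WT by edgeR, where 15.2% of all genes were called. At an unadjusted p below 0.05 there were 2, BRD2 with 0.28 (SE 0.09, edgeR adjusted p = 0.0681) and CDK9 with -0.24 (SE 0.09, edgeR adjusted p = 0.107), and DESeq2 called 1 member, BRD2 (adjusted p = 0.0199). Without untreated WT replicate 1, edgeR called BRD2 at 0.21 (adjusted p = 3.77e-06), HEXIM1 at 0.27 (adjusted p = 1.66e-06) and CDK9 at -0.16 (adjusted p = 0.000645), where 41.1% of all genes were called. The fit of all 4 U2OS groups called BRD2 (edgeR adjusted p = 0.00488) and CDK9 (0.0212). CDK9 held 83.5, 82.0 and 82.7 CPM in KO, below the 108, 94.0 and 90.4 CPM of WT. BRD2 held 299.6 to 319 CPM in KO, above the 228 to 268 CPM of WT.

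The treatment responses of the members were compared between the stages in 1 fit of all 24 libraries, as the log2 fold change after recovery minus that before it. Since the AID-DIvA U2OS and U2OS libraries also differ in cell line and sequencing series, this difference is between the 2 experiments as performed. In WT cells 5 members had a higher log2 fold change after than before recovery and 1 a lower one, against 22.6% and 22.8% of all genes. In KO cells the counts were 4 and 1, against 21.7% and 24.3%. BRD2, BRD3, HEXIM2 and MEPCE were higher and HEXIM1 lower in both genotypes, and the share of all genes called in both was not counted. MEPCE differed by 1.30 (SE 0.11, edgeR adjusted p = 5.36e-10) in WT and 1.04 (SE 0.11, edgeR adjusted p = 2.43e-08) in KO. HEXIM1 differed by -0.51 (SE 0.12, edgeR adjusted p = 0.00125) in WT and -0.36 (SE 0.12, edgeR adjusted p = 0.0189) in KO. The KO value of HEXIM1 did not pass without recovered AID-DIvA U2OS KO replicate 3 (edgeR adjusted p = 0.0790), untreated AID-DIvA U2OS KO replicate 3 (0.0514) or untreated U2OS KO replicate 2 (0.0537). LARP7 differed in WT by 0.29 (SE 0.11, edgeR adjusted p = 0.0379), a call that did not pass without recovered AID-DIvA U2OS WT replicate 1 (0.102), untreated AID-DIvA U2OS WT replicate 2 (0.0645) or 3 (0.0788), or treated U2OS WT replicate 1 (0.0533) or 3 (0.0920). For CDK9 and CCNT1 the differences lay between -0.08 and -0.01 with SE 0.09 to 0.14, and CCNT2 was at 0.19 in WT and 0.25 in KO (SE 0.14), neither passing (edgeR adjusted p = 0.315 and 0.174). Without untreated U2OS WT replicate 1 both CCNT2 values passed, at 0.34 in WT (edgeR adjusted p = 0.0132) and 0.27 in KO (edgeR adjusted p = 0.0338). The counts were then 6 higher and 1 lower in WT, against 24.1% and 23.0% of all genes, and 5 and 1 in KO, against 25.8% and 26.0%.

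**Figure D4:**
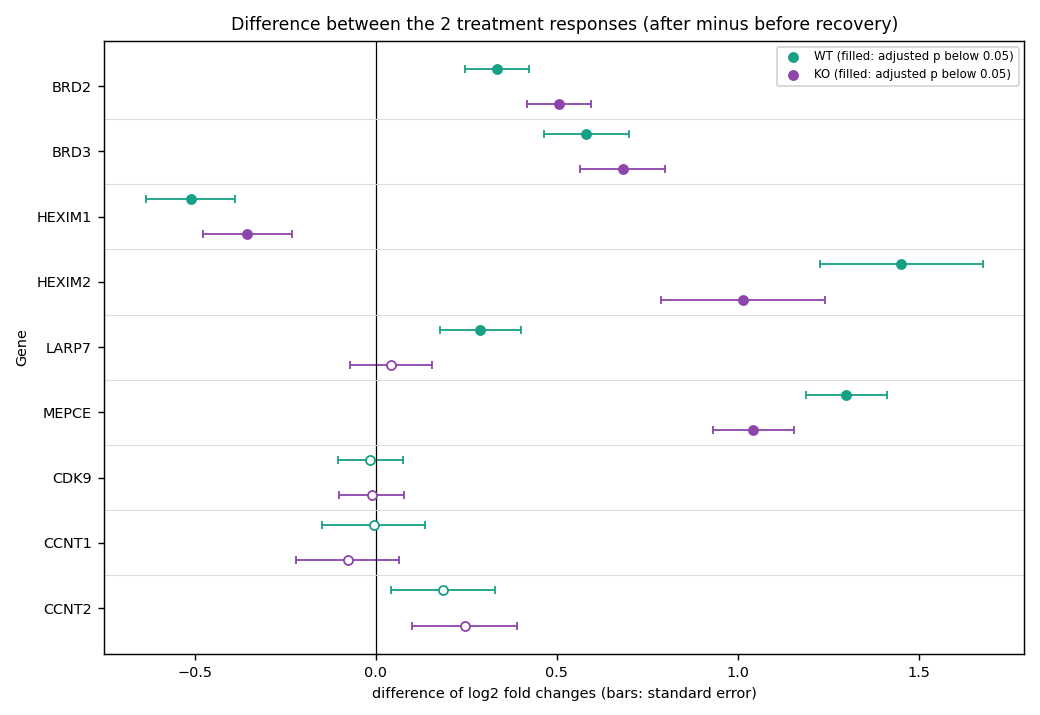
Log2 fold change after recovery minus that before it (x axis) for the 9 genes (y axis) in WT and KO cells, with bars for the standard error, filled points for adjusted p below 0.05 and open points for the rest. MEPCE and HEXIM2 lie beyond 1 to the right in both genotypes, and HEXIM1 alone has filled points left of 0.

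The group pattern of HEXIM1 was compared with that of every other gene of at least 1 CPM on average, as Pearson's r over the 8 group means of log2(CPM + 1). Among 15594 genes the closest were RP5-1139I1.1 (r = 0.981), RP11-734I18.1 (0.974), MMD (0.973) and PCDHA5 (0.971). The other 8 members had r with HEXIM1 from -0.72 for MEPCE to -0.13 for CDK9, and the share of all genes with a negative r was not counted. Without untreated U2OS WT replicate 1 the 4 named genes had r from 0.911 to 0.972, and the other 8 members from -0.74 to -0.11. The 8 points share libraries, genotypes and lines, and these values are descriptions.

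Other genes of elongation control were counted from lists. Their counts stand beside shares over all genes of 34.0% lower and 35.8% higher in KO and 22.9% and 26.0% in WT before recovery (32.5% and 33.9% in WT without untreated replicate 1), and of 19.9% and 20.2% in KO and 23.0% and 23.9% in WT after it. Of the 9 listed for 7SK RNA and its other binding proteins, 6 were lower and 2 higher before recovery in both genotypes, and 2 lower and 3 higher in KO and 3 lower and 2 higher in WT after recovery. Before recovery the median over these 9 was -0.29 in KO and -0.45 in WT on the log2 scale. The WT counts without untreated replicate 1 were again 6 and 2, with a median of -0.38, and SRSF1 was at -0.55 and JMJD6 at 0.54. The splicing factors SRSF1 and SRSF2, which also bind 7SK RNA, were lower in all 4 comparisons, SRSF1 by 0.50 in KO (edgeR adjusted p = 1.47e-10) and 0.54 in WT (edgeR adjusted p = 0.000327) before recovery. SRSF1 fell from 349 ± 0.414 to 245 ± 3.02 CPM in U2OS KO (SD, n = 3). JMJD6 and PPM1G, a demethylase-family protein and a phosphatase tied to release of P-TEFb from 7SK RNA, were higher in all 4, JMJD6 by 0.54 in KO (edgeR adjusted p = 8.05e-10) and 0.45 in WT (edgeR adjusted p = 0.00561) before recovery. RN7SK itself was at 0.428 to 2.08 CPM, and its log2 fold changes ran from -0.65 to 0.81. Of these, the KO value after recovery passed (SE 0.19, edgeR adjusted p = 0.00686). Whether counts this low reflect the level of 7SK RNA in the cells was not tested.

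The pausing factors NELF and DSIF were mostly lower before recovery, when 5 of 6 in KO and 4 of 6 in WT were lower and 1 was higher in each. After recovery none of the 6 was lower, and 2 in KO and 3 in WT were higher. NELFA, a NELF subunit, was at -0.36 (SE 0.05, edgeR adjusted p = 1.71e-06) in KO and -0.34 (SE 0.10, edgeR adjusted p = 0.0251) in WT before recovery and at 0.37 and 0.27 after it, whereas SUPT5H, the large DSIF subunit, was higher in all 4 comparisons at 0.19 to 0.27. In WT before recovery 5 of 6 were lower and 1 higher without untreated replicate 1, and NELFA was at -0.24. In the super elongation complex, which carries P-TEFb to the polymerase, 5 of 8 tested genes in KO and 5 of 9 in WT were higher before recovery, and 2 and 0 were lower. EAF2 was at 1.44 and 1.39 and MLLT3 at 1.35 and 1.27 in KO and WT, respectively, and both were singled out after their values were seen. The level of EAF2 was low, at 1.39 to 5.83 CPM. In WT, 6 of 9 were higher and 1 lower without untreated replicate 1, with EAF2 at 1.34 and MLLT3 at 1.31. After recovery 0 of 8 were higher and 1 lower in KO, and 2 of 8 were higher and 1 lower in WT. Of 7 PAF1 complex and SPT6 genes, 3 were higher and 3 lower in KO and 1 higher and 3 lower in WT before recovery, and PAF1 was lower in all 4 comparisons, at -0.38 to -0.17. Of 9 genes for the other transcriptional kinases and their cyclins, 4 were higher and 2 lower in KO and 3 higher and 0 lower in WT before recovery. Without untreated WT replicate 1 the PAF1 complex counts in WT were again 1 higher and 3 lower, and those of the kinases and cyclins were 5 higher and 3 lower.

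The other bromodomain genes were more often called lower than higher in all 4 treatment comparisons. Before recovery 22 of 31 tested in KO and 12 of 31 in WT were lower, with medians of -0.37 and -0.27, and 4 and 0 were higher. Without untreated WT replicate 1, 26 of 31 were lower and 1 higher in WT, with a median of -0.44. After recovery 16 of 31 were lower and 5 higher in each genotype, with medians of -0.18 in KO and -0.13 in WT. BAZ2B, BRPF3 and ZMYND11 were lower in all 4 comparisons. Before recovery ZMYND8, a reader of acetylated chromatin, fell by 1.38 (SE 0.05) in KO and by 1.14 (SE 0.14) in WT on the log2 scale and was higher by 0.63 (SE 0.06) and 0.55 (SE 0.05) after it, and all 4 changes passed with edgeR adjusted p of at most 0.000325. The WT value before recovery was -1.29 (SE 0.05) without untreated replicate 1. ZMYND8 thus changed sign between the stages, as BRD3 did in both genotypes. The WT value of BRD3 before recovery did not pass in the main comparison. ZMYND8 group means were 61.1 CPM untreated and 23.4 CPM treated in U2OS KO, and 62.3 CPM untreated and 96.7 CPM recovered in AID-DIvA U2OS KO.

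**Figure D5:**
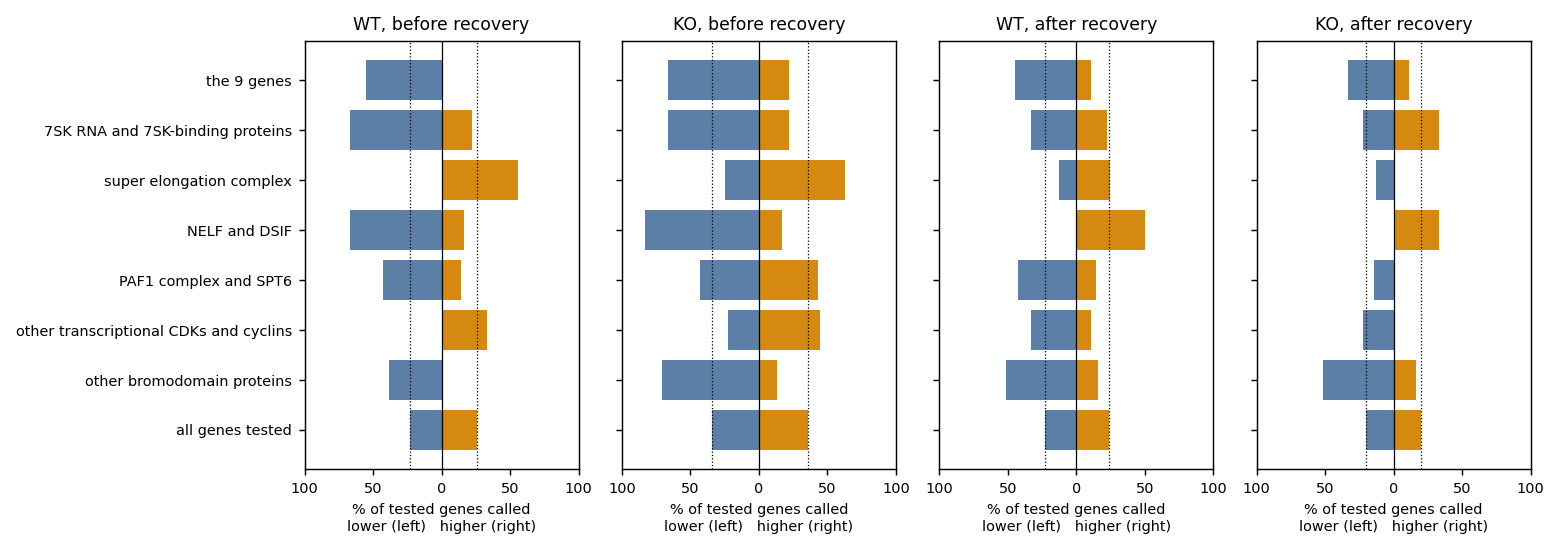
Percent of tested genes called lower (left, blue) or higher (right, orange) on the x axis for the 9 genes, 6 other lists and all tested genes (y axis), in 1 panel for each genotype and stage. Dotted lines mark the shares over all genes, and bars for the 9 genes reach past the dotted line on the lower side in all 4 panels.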

How the data were processed

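Total RNA of 24 libraries was prepared with a stranded kit and sequenced with paired ends. Per the labels, reads were aligned with STAR to hg19 (GRCh37) and counted by gene with featureCounts. The deposited tables hold raw counts by gene on either strand and on each strand, and library totals of 37878751 to 76906266 counts limit the precision of low genes such as HEXIM2. The study's methods name gene annotation release 29 lifted to build 37. Versions of the aligner and counter were not given in the sources used here.

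Genes were matched by name, and gene names, lengths and coordinates are those of the files. Each comparison was fitted across all genes passing filterByExpr with edgeR (version 4.0.16, R 4.3.3), using TMM factors and the quasi-likelihood test, and adjusted by the Benjamini-Hochberg method with a threshold of 0.05. Treatment and genotype comparisons used the libraries of the 2 groups concerned, interactions those of 4 groups, and the comparison of stages all 24 libraries. CPM were scaled over the 24 libraries. Alternatives were DESeq2 (1.42.0), its size factors, no filter, a minimum of 10 counts in every library, own-strand counts, a replicate block, a fit of all 4 groups of a line, a log2 limit of 1 and leaving out each library. The study's methods call the 3 replicates of a condition biological, and p-values measure the spread between these libraries. On simulated counts with 200 genes changed by a log2 of 1.5, 99.5% were recovered for KO after recovery among 20362 genes and 98% for the interaction after recovery among 21265 genes. Of the calls in these simulations, 0.995% and 5.31% were false. The changed genes were drawn from those with more counts, and the largest member interaction after recovery was -0.28 (HEXIM2). The shares recovered therefore do not give the chance of finding changes as small as those of most members. The 9 genes and the lists were chosen with earlier results of these data known, and named genes were the 9, ID3, the 5 genes most like HEXIM1 (1 of them is not reported here) and, of each list, up to 4 genes called in all 4 treatment comparisons with the largest mean absolute log2 fold change. EAF2, MLLT3 and RN7SK were named outside this rule, after their values were seen. Promoter windows came from RefSeq (GRCh38.p14) and were not combined with hg19 coordinates.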

Additional observations from a re-analysis of the deposited data

Results flagged for a closer look

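The tested difference between the treatment response after recovery and that before it, in the fit of all 24 libraries, marked 11 results. In WT cells it was 0.33 (SE 0.09) for BRD2, 0.58 (SE 0.12) for BRD3, -0.51 (SE 0.12) for HEXIM1, 1.45 (SE 0.22) for HEXIM2, 0.29 (SE 0.11) for LARP7 and 1.30 (SE 0.11) for MEPCE, on the log2 scale. In KO cells it was 0.51 (SE 0.09) for BRD2, 0.68 (SE 0.12) for BRD3, -0.36 (SE 0.12) for HEXIM1, 1.01 (SE 0.23) for HEXIM2 and 1.04 (SE 0.11) for MEPCE. The edgeR adjusted p for HEXIM2 was 6.79e-06 in WT and 0.000612 in KO, and for BRD3 0.000204 and 2.75e-05. BRD2 had edgeR adjusted p = 0.00310 in WT and 3.72e-05 in KO. Without untreated U2OS WT replicate 1 the WT differences were 0.41 for BRD2, 0.73 for BRD3, -0.64 for HEXIM1, 1.41 for HEXIM2, 0.28 for LARP7 and 1.21 for MEPCE, and all 6 passed. Cell line, sequencing series and stage coincide in this difference and cannot be told apart, and its sign rests on the library titles of AID-DIvA U2OS.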

How the results depend on the processing

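Without 1 library the count of members called ran from 0 to 2 higher and 2 to 3 lower in KO after recovery, from 1 to 2 higher in WT after recovery, from 0 to 2 higher and 4 to 6 lower in WT before recovery, from 0 to 5 higher and 1 to 2 lower between untreated genotypes in AID-DIvA U2OS, and from 0 to 2 higher and 0 to 1 lower in U2OS. For the difference between stages it ran from 4 to 5 higher and 0 to 1 lower in KO and from 4 to 6 higher in WT. The interactions stayed at 0 in all such fits. A minimum of 10 counts in every library gave 2 lower in KO after recovery. DESeq2 gave 1 higher between untreated genotypes in U2OS and, without the BRD3 call, 5 called members in place of 6 in AID-DIvA U2OS. Own-strand counts gave 2 higher in WT after recovery and 1 higher in WT before it. A fit of all 4 groups of a line gave 2 higher in KO after recovery, 1 higher in KO before it, 1 higher in WT before it, 0 higher between untreated genotypes in AID-DIvA U2OS, and 1 higher and 1 lower in U2OS. A limit of 1 on the log2 scale left 0 higher and 0 lower after recovery in either genotype and between untreated genotypes in AID-DIvA U2OS, and 0 higher and 2 lower in KO and 2 lower in WT before recovery.

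With the replicate number as a block, KO after recovery had 0 higher and 2 lower (BRD3, edgeR adjusted p = 0.0557, and CCNT2, 0.0867, did not pass), and untreated AID-DIvA U2OS had 2 higher in KO in place of 4 (BRD3, 0.0863, and HEXIM1, 0.0629, did not pass). No other call of a member changed with the block. The deviations of same-numbered libraries were weakly and unevenly correlated, from -0.46 to 0.345 in AID-DIvA U2OS (median -0.088) and -0.080 to 0.389 in U2OS (median 0.046). Of these correlations, 6 of 18 in each line were above 0.1, and the 3 of treated with untreated U2OS KO ran from 0.042 to 0.139.

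Of the values for single members under an alternative, 1444 kept direction and side of the threshold, 48 lost and 22 gained a call, and 52 changed sign. None of the values that changed sign was a call in the main comparison. Own-strand counts turned HEXIM2 to 0.091 in KO after recovery and to -0.075 between untreated genotypes in AID-DIvA U2OS, and CDK9 to 0.0016 between stages in KO, and the minimum of 10 counts turned LARP7 to -0.0065 there. Without 1 library the log2 values of the others ranged, in KO after recovery, from -0.145 to 0.105 (HEXIM2), -0.19 to 0.0014 (CCNT1), -0.084 to 0.025 (BRD2) and -0.12 to 0.014 (HEXIM1), and in WT after recovery from -0.0053 to 0.047 (CDK9). In WT before recovery they ranged from -0.046 to 0.18 (CCNT1) and -0.029 to 0.11 (CDK9). For the interaction they ranged after recovery from -0.022 to 0.094 (BRD2), -0.084 to 0.11 (CCNT2), -0.13 to 0.029 (LARP7) and -0.073 to 0.017 (BRD3), and before it from -0.20 to 0.011 (BRD3), -0.082 to 0.13 (HEXIM1) and -0.17 to 0.084 (CCNT2). Between untreated genotypes they ranged from -0.065 to 0.086 (LARP7) and -0.11 to 0.15 (HEXIM2) in AID-DIvA U2OS and from -0.044 to 0.17 (BRD3) in U2OS. Between stages they ranged from -0.13 to 0.038 (CCNT1), -0.050 to 0.031 (CDK9) and -0.033 to 0.13 (LARP7) in KO and from -0.087 to 0.14 (CCNT1) and -0.086 to 0.037 (CDK9) in WT. The LARP7 call between stages in WT was also lost with no filter (edgeR adjusted p = 0.0980) and at 10 counts in every library (0.0727). The cause of these changes was not tested, except that leaving out a library leaves fewer samples. HEXIM2, at 55 to 249 counts per library, has the largest counting error of the 9 genes.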
